A study of Mus musculus with 8 samples.

Results

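The distribution of PU.1 binding over genes was compared between 2 clonal lines of X18.1.1, an AML cell line established from an irradiated mouse. It has lost one copy of Pu.1 (Spi1) and carries mutations in the remaining copy, so both lines share the mutant protein. The PuER line (PU.1+) was transduced with a retrovirus encoding wild-type PU.1 fused to an oestrogen receptor domain that responds to 4-hydroxytamoxifen (OHT), and the EV line (PU.1-) with the empty vector. Each line was a single clone, that of PuER chosen for little activity of the fusion in the absence of OHT, and both were kept in 100 nM OHT for 2 h. The antibody used for ChIP-Seq detected both mutant PU.1 and PuER in the immunoblots of the paper. Whether ChIP recovers them equally was not tested.

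Members of the comparison were all PU.1 peaks of the pair of lines, 5288 in EV and 15683 in PuER, or 20971 of the 67673 peaks in the 4 lists analysed. The other 46702 were CEBPA peaks of the same lines, and samples of H3K27Ac and IgG are not analysed here. Every peak was an interval of 400 bp with no score, height or count, and so depth is unknown. There was 1 library for each line, so differences between the lines have no replicate check and no test was made, and line, clone and induction cannot be told apart. Cell type could not be checked, because the lists hold binding sites and not expression.

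Each of 21951 protein-coding genes received every peak whose centre lay in the gene or within 20 kb of it, a stretch called the gene window. Peaks of the other line that overlapped by 1 bp or more were treated as the same. Peaks listed only in PuER (12714) are called gained and those listed only in EV (2318) lost, as a description of the lists. Binding may occur at a site that a list does not contain. Net change is the number of PuER peaks of a gene minus the number of EV peaks. A peak could count for several genes, and those assigned at all were assigned to a mean of 1.51 genes in PuER and 1.66 in EV.

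PU.1 is an ETS-family transcription factor that binds DNA at sites with a GGAA core. It is required for the monocytic and lymphoid lineages, and it opens enhancers of myeloid genes, often together with CEBPA and RUNX1. Reduced PU.1 dose or function blocks myeloid maturation and predisposes mice to AML.

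The sequences that carry these differences are shown first, as the central 80 bp of peaks at genes named below. They were read from the forward strand of mm10 (GRCm38), and capitals mark the ETS site GGAAGT or its complement ACTTCC. GAGGAAGT, the PU.1-type site, contains GGAAGT and is counted with it. Both were searched on both strands. The gained peaks shown are at Sla, Tg, Hdac9, Adgrl3, Lyve1, Dok2 and Klhl9, the genes that lead the counts of gained peaks or their density.
Sla intron, chr15:66825538-66825617: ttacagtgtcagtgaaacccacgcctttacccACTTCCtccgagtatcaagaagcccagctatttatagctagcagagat
Sla intron without a site, chr15:66820439-66820518: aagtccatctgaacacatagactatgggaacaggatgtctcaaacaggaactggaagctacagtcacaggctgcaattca
Tg, partly coding exon, chr15:66685234-66685313: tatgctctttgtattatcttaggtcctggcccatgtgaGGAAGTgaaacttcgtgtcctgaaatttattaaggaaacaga
Hdac9 intron, chr12:34847484-34847563: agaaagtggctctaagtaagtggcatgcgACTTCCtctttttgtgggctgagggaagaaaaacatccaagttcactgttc
Adgrl3 intron, chr5:81078177-81078256: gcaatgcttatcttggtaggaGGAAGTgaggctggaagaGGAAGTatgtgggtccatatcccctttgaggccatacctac
Lyve1 downstream, chr7:110848385-110848464: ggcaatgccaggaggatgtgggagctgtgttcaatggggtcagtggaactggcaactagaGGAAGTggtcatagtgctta
Dok2 downstream, chr14:70781265-70781344: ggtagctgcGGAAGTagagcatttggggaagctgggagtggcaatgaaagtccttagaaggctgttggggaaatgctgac
Klhl9 downstream, chr4:88698912-88698991: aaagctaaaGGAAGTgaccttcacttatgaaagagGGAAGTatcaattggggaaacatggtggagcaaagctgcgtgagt
Lost peaks are shown at 5 of the genes with the lowest net change.
Tmem205 downstream, chr9:21901579-21901658: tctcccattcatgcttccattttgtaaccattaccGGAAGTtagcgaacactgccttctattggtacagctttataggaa
Midn intron, chr10:80156115-80156194: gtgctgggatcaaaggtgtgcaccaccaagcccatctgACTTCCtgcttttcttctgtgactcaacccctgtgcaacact
Marc2 upstream, chr1:184853428-184853507: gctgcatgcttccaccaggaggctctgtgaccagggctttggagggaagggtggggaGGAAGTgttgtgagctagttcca
Rps21 downstream, chr2:180276904-180276983: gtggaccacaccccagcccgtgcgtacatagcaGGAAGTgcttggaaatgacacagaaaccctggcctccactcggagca
Irs2 upstream without a site, chr8:11012262-11012341: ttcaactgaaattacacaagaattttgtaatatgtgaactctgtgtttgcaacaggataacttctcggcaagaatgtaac
GAGGAAGT occurred in 5 of the 8 gained peaks shown, with 2 copies at Adgrl3, and in the Marc2 peak among the lost ones. Over all peaks, 42.9% of gained and 29.6% of lost ones held GGAAGT in their central 80 bp. These examples were picked to show sites and do not stand for those shares.

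Across all genes, the net change was above 0 for 7124 genes (32.5% of 21951), below 0 for 1362 (6.20%) and 0 for 13465. Of the latter, 11796 had no PU.1 peak in either line. A peak in PuER and none in EV was found at 4962 genes, and the reverse at 1063. Another 4130 genes had peaks in both. Gained peaks were assigned to 8059 genes and lost peaks to 3007. Of the genes with a lost peak, 829 nevertheless had a net gain and 817 a net change of 0, so a lost peak often did not mean a net loss.

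The 20 genes with the highest net change had between 0 and 24 peaks in EV (median 3) and between 10 and 48 in PuER (median 15.5). They were ranked by these counts, so the counts describe them and are no test. Their windows were long, with a median of 480 kb against 57.4 kb for all genes, and none was under 148 kb. The ranking held 281 gained and 31 lost peaks.

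Thyroglobulin (Tg), the precursor of thyroid hormones, had 1 peak in EV and 18 in PuER. Of its 17 gained peaks, 10 also lay in the window of Sla, which encodes a Src-like adaptor that restrains antigen receptor signalling and lies inside Tg on the opposite strand. Sla itself had 0 peaks in EV and 10 in PuER, all gained. Sla spans chr15:66780819-66831829 and Tg chr15:66670753-66850721. The adjacent high counts of these genes therefore describe largely the same peaks.

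Histone deacetylase Hdac9 (chr12:34047580-34917095) had 1 peak in EV and 18 in PuER. Its 17 gained peaks were all inside the gene and were spread over 807 kb. Adgrl3, an adhesion receptor best known from neurons, had none in EV and 16 in PuER, spread over 464 kb of chr5:81020138-81825133. These genes differed from Trps1, a GATA-type zinc-finger repressor, which was already well occupied. Trps1 had 7 peaks in EV and 22 in PuER, and 5 of the PuER peaks were shared.

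The ranking also held the transcription factors Etv6, an ETS-family repressor, Foxp1 of the forkhead family and Irf2 of the interferon regulatory factors. Etv6 had 5 peaks in EV and 16 in PuER, Foxp1 had 2 and 12, and Irf2 had 1 and 10. The single EV peak of Irf2 was at its start and was shared, and the 9 gained peaks began 25.4 kb into the gene, so that none lay near the start. Rere, an atrophin-family corepressor, had 3 peaks in EV and 13 in PuER.

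Among the other genes, Srgap2, a Rac GTPase-activating protein, had 4 and 16 peaks, in EV and PuER respectively. Asap1, which acts on Arf, had 6 and 18, and Dennd1b, an exchange factor for Rab, had 1 and 11. Srgap2 had no lost peak. Cask, a membrane scaffold, had none in EV and 10 in PuER, and its window includes that of Gpr34, described below.

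The remaining genes were Astn2 (3 and 15 peaks), Fars2 (0 and 11), Babam2 (1 and 11), Abca13 (3 and 13), Lpp (6 and 16) and Pde4d (5 and 15). Fars2 encodes a mitochondrial tRNA synthetase and Pde4d a cAMP phosphodiesterase. Their windows ran from 427 kb for Babam2 to 1544 kb for Pde4d.

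Counts for 2 of the 20 genes rest on how far the annotation extends. Gm20388, a predicted gene, had 24 peaks in EV and 48 in PuER, over a window of 4475 kb that covers many other genes. Fgfr2 had 9 and 23, over 3001 kb. With RefSeq boundaries, an alternative chosen after the data were seen, Fgfr2 had a net change of 0 and Gm20388 was not found. The other 18 genes had a net change of at least 8 by those boundaries, and their order began with Tg, Hdac9, Adgrl3 and Trps1.

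**Figure D1:**
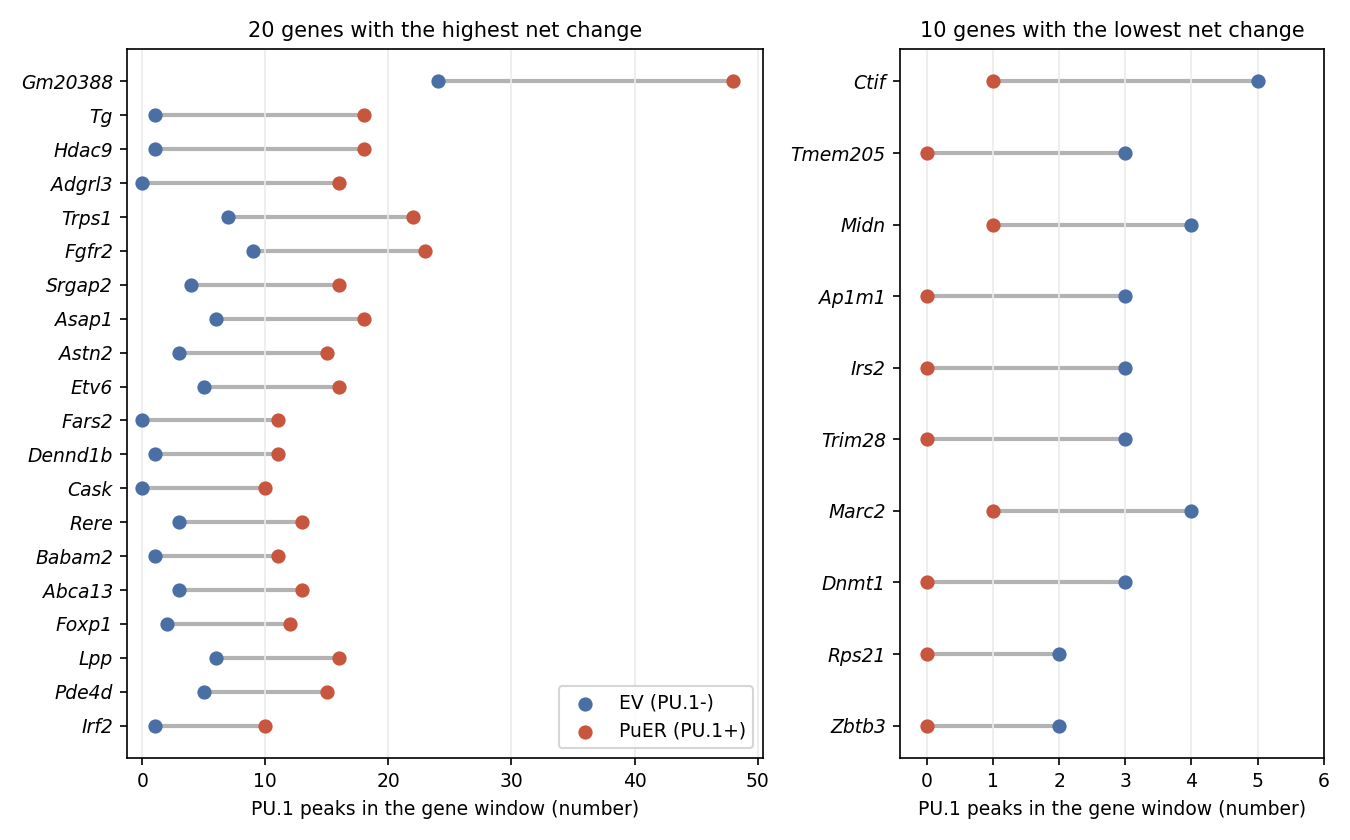
PU.1 peaks in the gene window (horizontal axis, number) for the 20 genes with the highest and the 10 with the lowest net change, in order from the top, in the EV (blue) and PuER (red) lines, with 1 library each. Gains reach 17 peaks at Tg and Hdac9 and 24 at Gm20388, whereas the largest loss is 4 peaks, at Ctif.

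Across the 281 gained peaks of these genes, 267 lay in the gene itself, 10 upstream and 4 downstream. Over all genes, the gene body held 48.3% of the pairs of gained peak and gene. The windows of the 20 genes are long, so the flanks of 20 kb are a small part of them. Of the 281 peaks, 4 were within 1 kb of the annotated start of any protein-coding gene, beside 5.82% of all gained peaks. The part of gene length in these counts was not tested. GGAAGT occurred centrally, within 80 bp, in 126 (44.8%, 95% confidence interval 38.9–50.9%), against 42.9% (42.0–43.7%) of all gained peaks. GAGGAAGT occurred in 54 (19.2%, 14.8–24.3%), against 15.5% (14.9–16.1%). Both intervals include the value for all gained peaks. For TTGCNNAA, the C/EBP site, the shares were 8.54% (5.55–12.4%) and 6.33% (5.91–6.77%), and for TGTGGT, the RUNX site, 8.90% (5.84–12.9%) and 9.29% (8.79–9.81%). All intervals are exact binomial (Clopper-Pearson) and reflect counting error alone.

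The largest group of neighbouring peaks in either line lay at Sla. There, 10 gained peaks followed each other within 31.7 kb, from -1.63 to 30.1 kb from the Sla start, counted in its direction of transcription. No EV peak was listed among them. The nearest, at -34.2 kb from the Sla start, was shared. Of the 10, 3 held GGAAGT centrally. CEBPA, the myeloid factor that often binds beside PU.1, had 3 peaks across Tg and Sla in EV and 10 in PuER. All 3 CEBPA peaks of EV were shared and lay within the group, between 13.6 and 18.2 kb into Sla. Of the 7 CEBPA peaks listed only in PuER, 3 lay in the same group. The Tg window thus gained peaks of both factors, while CEBPA peaks per gene were fewer in PuER over all genes, at a mean of 1.19 against 1.51.

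**Figure D2:**
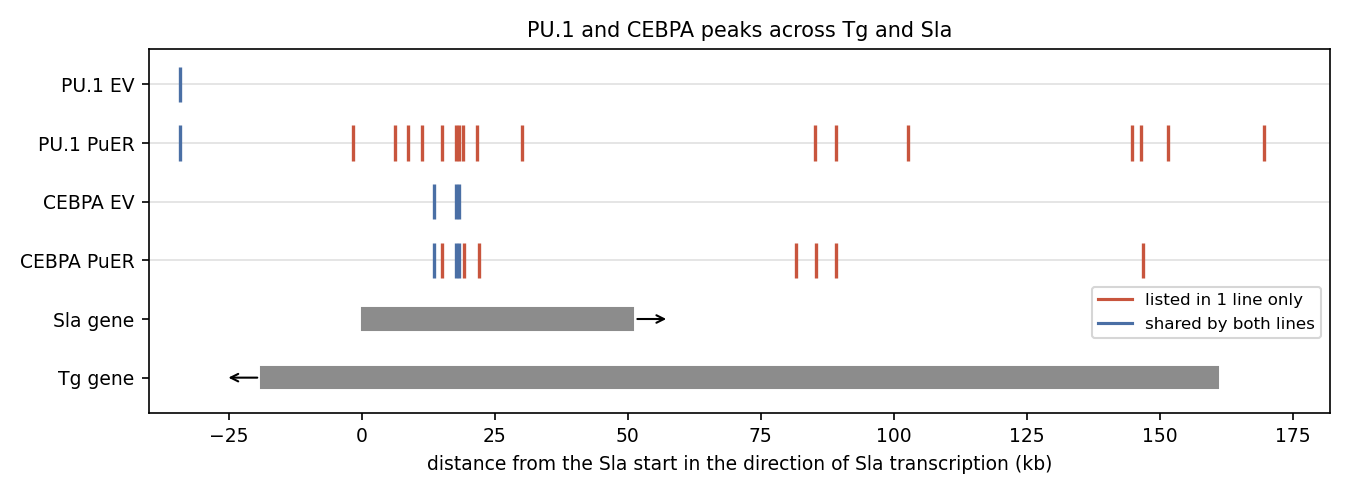
PU.1 and CEBPA peaks of both lines across Tg and Sla, as vertical ticks at their centres, by distance in kb from the start of Sla in its direction of transcription. Red ticks were listed in 1 line only and blue ticks in both, and grey bars are the genes with arrows for their direction. The 10 gained PU.1 peaks at Sla stand between -1.63 and 30.1 kb.

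Losses were smaller than gains. A single gene had a net change of -4, 8 genes had -3, 100 had -2 and 1253 had -1. Ctif, a translation initiation factor on chromosome 18, had 5 peaks in EV and 1 in PuER, and all 4 lost peaks lay in the gene and coincided with CEBPA peaks. The number of genes with a net gain of 5 or more was 311 (1.42%), and no gene lost as many.

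Chromatin regulators were among the genes with a net change of -3. Dnmt1, the maintenance DNA methyltransferase, had 3 peaks in EV and 0 in PuER. Trim28, a corepressor of zinc-finger proteins, also had 3 and 0. In each case 2 of the 3 lost peaks were within 1 kb of the start of a protein-coding gene, but these were starts of neighbours, among them Ppan and S1pr2 beside Dnmt1, and Zbtb45 and Ube2m beside Trim28. By these starts, the count for a gene window is not always a count for its own promoter. Each gene has a single start here, the outer end of its annotated span. Starts inside the spans of Trim28 and Dnmt1 were not examined.

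Genes of trafficking and metabolism lost as many. Ap1m1, a subunit of a clathrin adaptor, had 3 peaks in EV and 0 in PuER, of which 1 was at its own start. Irs2, which relays insulin signals, had 3 and 0, and its lost peaks all lay upstream, at -1.09, -3.84 and -7.89 kb from the start. Tmem205 had 3 and 0, shared with Rab3d, a GTPase of secretory granules. Midn had 4 and 1, as did Marc2, a mitochondrial reductase. Marc2 was the exception in that it had a gained peak, in the gene, beside 4 lost ones.

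Rps21, a ribosomal protein, and Zbtb3, a zinc-finger protein, followed with 2 peaks in EV and 0 in PuER. They stand for the 100 genes with a net change of -2, from which they were taken as those with the smallest windows. Of the 30 lost peaks of all 10 genes, 13 had a GGAAGT site (43.3%, 25.5–62.6%), an interval that includes the 29.6% of all lost peaks. Within 1 kb of a gene start lay 8 of the 30, beside 31.5% of all lost peaks. A CEBPA peak of either line coincided with 16 of the 30. The share over all lost peaks is not given here, so this count is a description only.

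Gained and lost peaks had different positions. Over all genes with a net loss, 431 of 956 lost peaks (45.1%, 41.9–48.3%) were within 1 kb of a gene start, against 26.4% (23.4–29.6%) of the 803 lost peaks at genes with a net gain. Of the 9353 gained peaks at genes with a net gain, 7.60% (7.07–8.16%) were. The median distance to the nearest gene start was 25.6 kb for gained, 20.9 kb for shared and 10.1 kb for lost peaks. Distances over 100 kb were found for 18.3% (17.67–19.03%) of gained and 11.3% (10.1–12.7%) of lost peaks.

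Within gene windows, the body of the gene held 48.3% of the pairs of gained peak and gene, the 20 kb upstream 28.1% and the 20 kb downstream 23.6%. For lost peaks the shares were 39.8%, 33.6% and 26.6%. Per length, however, the upstream part was the densest for either class, with 9.34 gained peaks per 1000 kb against 6.56 in gene bodies, and 2.65 against 1.28 for lost peaks. Flanks are shared by neighbouring genes, and each pair was counted.

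Long windows dominate a ranking by counts, so density was examined as well, among genes with a net change of 5 or more. Ranked by net change per 100 kb of window, the leading gene was Lta, with 0 peaks in EV and 6 in PuER in a window of 42.2 kb. Lta encodes lymphotoxin alpha and stands next to Tnf, the tumour necrosis factor gene, with Lst1 and Aif1 as further neighbours that share these peaks. The 6 peaks lay on either side of Lta, from -17.1 kb to 19.04 kb from its start, and none was in the gene. The central 80 bp of one of them overlapped coding sequence of Tnf.

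Type I interferon genes lay beside the next gene. Klhl9, an adaptor of a cullin ubiquitin ligase, had 0 peaks in EV and 6 in PuER, shared with Ifnab of the interferon cluster and with Gm26566. Of these peaks, 3 had a GGAAGT site. All 6 lay outside Klhl9, so the count belongs to the locus.

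Mcl1, an anti-apoptotic member of the BCL2 family, had 2 peaks in EV and 8 in PuER. Both EV peaks were shared, at -13.3 and -7.97 kb from the start. A gained peak lay at the Mcl1 start itself, and 4 of its 6 gained peaks had a GGAAGT site. Dok2, an adaptor that dampens tyrosine kinase signals in blood cells, had 0 and 6.

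Lyve1, a hyaluronan receptor of lymphatic vessels and some macrophages, had 0 peaks in EV and 7 in PuER, and 6 of the 7 had a GGAAGT site. Gpr34, a lysophospholipid receptor of myeloid cells, had 0 and 6, all inside the span of Cask. Tex12, a gene of meiotic chromosomes, also had 0 and 6, with Bco2 as its neighbour. The Tex12 peaks lay in Bco2 and Il18, which encodes an inflammatory cytokine, and not in Tex12.

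Some genes both gained and lost peaks. Beside Gm20388 and Fgfr2, the most exchange was at Itpr1, an intracellular calcium channel, and Rad51b, a DNA repair gene, with 4 lost peaks each against 6 and 8 gained. Their totals were 7 in EV and 9 in PuER for Itpr1, and 6 and 10 for Rad51b. At Itpr1, a lost peak lay at -0.082 kb, next to the start, and gained peaks lay 1.66, 9.98 and 33.5 kb inside the gene. Lcp1, the actin-bundling protein of leukocytes, had 6 peaks in EV and 7 in PuER, with 3 lost, 4 gained and 3 shared. At Lcp1 a gained peak at 48.3 kb and a lost one at 48.8 kb from the start lay side by side without overlapping. In all, 1764 genes had at least 1 gained and 1 lost peak.

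At Spi1, the targeted gene, there were 2 peaks in EV and 3 in PuER. Both EV peaks were shared, with PuER centres at -11.7 and 0.699 kb from the annotated start, the outer end of the span. The gained peak lay 2.34 kb inside that end (chr2:91084528-91084927). None of the peaks touched an exon of Spi1. Starts inside the span were not examined, so a peak counted as inside may still lie upstream of another start. By ChIP-qPCR, the paper found binding in both lines at an upstream regulatory element of this gene. Whether any of these peaks lies at that element was not tested.

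The number of peaks per gene rose. Genes with 1 or more peaks were 5193 (23.7%, 23.1–24.2%) in EV and 9092 (41.4%, 40.8–42.1%) in PuER, with a mean of 1.38 and 2.01 peaks among them. Genes with 2 or more numbered 1329 in EV and 4336 in PuER, and genes with 5 or more 54 and 595. Of the latter, 109 had no peak in EV. The list itself was 2.97 times as long in PuER.

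**Figure D3:**
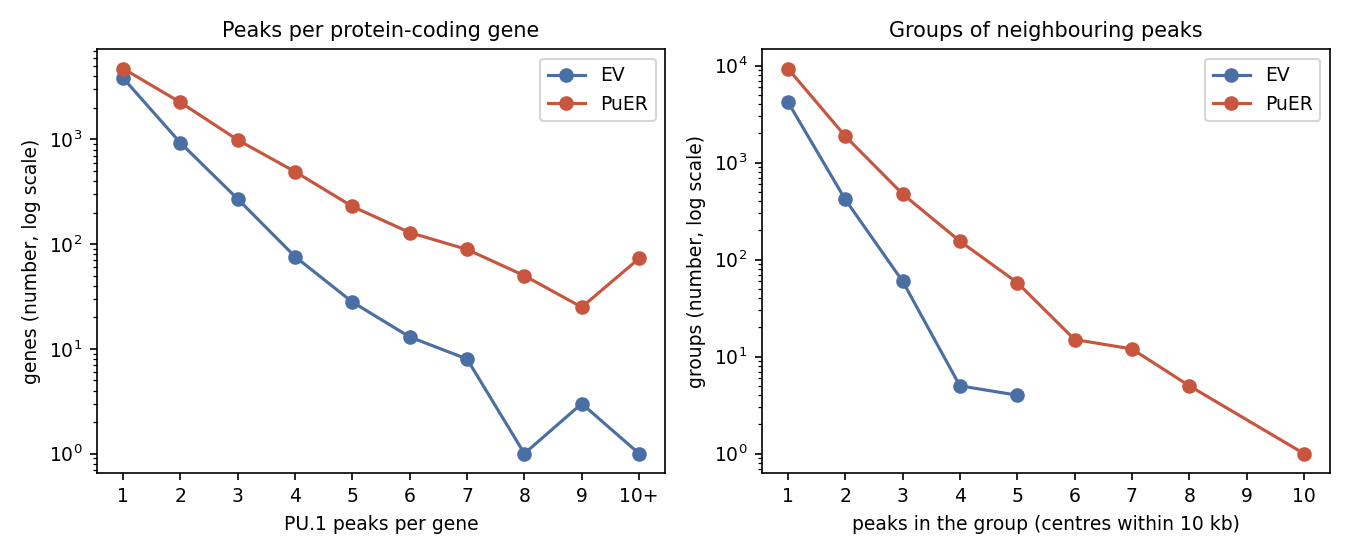
Left, protein-coding genes with at least 1 PU.1 peak (number, log scale) by the number of peaks in their window, with the last point for 10 or more. Right, groups of neighbouring peaks (number, log scale) by the number of peaks in them, with peaks placed in one group when centres followed within 10 kb. In either plot the PuER line (red) lies above the EV line (blue) at every size from 1 at which EV has a point, and groups end at 5 peaks in EV and at 10 in PuER.

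Window size moved with these counts. In the quartile of genes with the shortest windows (40.1–46.5 kb), 19.2% had a net gain and 5.23% a net loss. In the quartile with the longest (over 85.1 kb), 48.0% had a net gain and 5.12% a net loss. The middle quartiles had net gains at 26.8% and 35.9% and net losses at 7.22% and 7.25%. The share with a net gain was higher in each longer quartile, and the share with a net loss was lowest in the shortest and longest. Per length the order was different, with 0.729 gained peaks per 100 kb in the shortest, 0.871 and 0.940 in the middle quartiles and 0.649 in the longest windows.

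Genes that already had a PU.1 peak in EV were more often joined by a gained one. Of 5193 such genes, 3098 (59.7%, 58.3–61.0%) had a gained peak, against 4961 of 16758 (29.6%, 28.9–30.3%) without an EV peak. The order held in each quartile of window size, from 46.9% (43.4–50.4%) against 17.6% (16.5–18.7%) in the shortest to 75.1% (73.0–77.1%) against 42.9% (41.3–44.5%) in the longest. In distance, 16.4% (15.8–17.1%) of gained peaks had an EV peak within 10 kb and 27.2% (26.4–27.9%) one at 10 to 50 kb. The median distance was 65.2 kb. Conversely, 9.31% (8.81–9.83%) were over 500 kb from any EV peak.

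**Figure D4:**
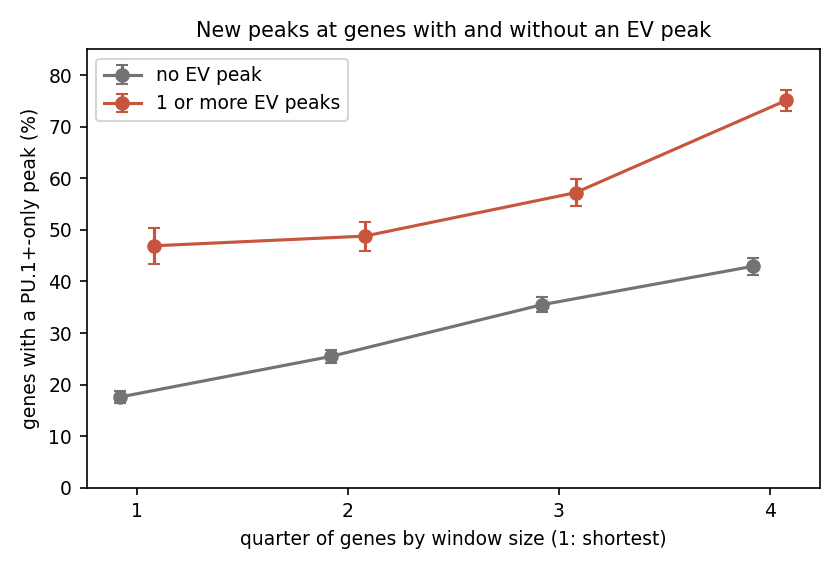
Share of genes with at least 1 gained peak (vertical axis, %) in 4 quartiles of genes by window size, for genes with 1 or more EV peaks (red) and with none (grey). Bars are exact 95% intervals for counting error. Genes with an EV peak lie above the others in each quartile, from 46.9% against 17.6% to 75.1% against 42.9%.

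By a fixed distance between neighbouring peaks, a larger share of peaks stood in groups in PuER than in EV. Groups of 3 or more peaks, with centres following each other within 10 kb, numbered 69 in EV and 722 in PuER. They held 4.16% (3.64–4.73%) of EV peaks and 16.3% (15.8–16.9%) of PuER peaks. The median distance to the nearest peak of the same line was 47.8 kb in EV and 15.5 kb in PuER, beside a mean spacing over the genome of 498 and 168 kb. A longer list by itself places peaks closer, and the part this plays was not tested.

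Of the 722 groups, 322 (44.6%, 40.9–48.3%) consisted of gained peaks alone and 400 held a shared peak, of which 4 had no gained peak. Shared peaks were in groups of 3 or more in 18.6% (17.21–20.04%) of cases in PuER, and gained peaks in 15.8% (15.2–16.5%). Sites did not follow group size in one direction. GGAAGT occurred in 44.1% (43.1–45.1%) of PuER peaks that stood alone, 40.4% (38.3–42.6%) of those in groups of 3 or 4 and 46.9% (42.5–51.3%) in groups of 5 or more.

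After Sla, the largest groups in PuER had 8 peaks each. They lay at Rgs3, a regulator of G-protein signalling (chr4:62661485-62687128, 7 gained), at Mcl1 (chr3:95645253-95674087, 6 gained), at the adenosine receptor gene Adora3 with Tmigd3 and I830077J02Rik (chr3:105892449-105932920, all 8 gained), at the inhibitory Fc receptor gene Fcgr2b (chr1:170953197-171006728, 4 gained) and beside 2010109I03Rik (chr15:74910075-74932011, 7 gained). GGAAGT occurred in 6 of the 8 peaks at Mcl1 and at Adora3, and in 5 at Rgs3 and Fcgr2b. In EV the largest groups had 5 peaks. These lay at Il17ra, the interleukin 17 receptor (chr6:120466612-120486306), at Nbeal2 and Ccdc12, at Vps13d, and at chr7:63999657-64018577 with no protein-coding gene within 20 kb. Of the 5 peaks at Il17ra, 1 was lost, and the Il17ra window held 6 peaks in either line.

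By chromosome, PuER peaks were densest on chromosome 19, at 8.89 per Mb (2.77 in EV), and sparsest on X among chromosomes with peaks, at 2.01 per Mb (0.415 in EV). No PU.1 peak was listed on Y in either line. On chromosome 11, the densest in EV, there were 3.15 per Mb in EV and 7.87 in PuER. The ratio of PuER to EV peaks was between 2.48 (chromosome 8) and 4.83 (X). In windows of 1 Mb, the most gained peaks lay at 131 to 132 Mb of chromosome 1, with 13 peaks in EV and 47 in PuER, around Il10, Mapkapk2, Ikbke and Srgap2. The next held Tg and Sla (33 gained) and, on chromosome 1, Ptprc and Dennd1b (33 gained).

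Lists of genes were examined by function, and all were drawn up with earlier results of these data known. In 7 lists of myeloid or haematopoietic genes, between 59.1% and 91.3% had a net gain, against 32.5% of all genes. The median net change of all genes was 0, and that of each of the 7 lists was at least 1. The median window of these lists ran from 48.9 to 90.7 kb, against 57.4 kb for all genes.

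Kinases, phosphatases and lipid signalling enzymes of blood cells had the highest median net change, 4, with 25 of 28 genes gaining and 1 losing. Arhgap15, a Rac GTPase-activating protein, had 2 peaks in EV and 10 in PuER. The inositol phosphatase Inpp5d had 3 and 10. Dok2 and the phosphoinositide 3-kinase adaptor Pik3ap1 each had 0 and 6. Every peak of these 4 genes in EV was shared. The lowest were Btk, with 2 and 1, and the lymphocyte exchange factor Rasgrp1, with none. Over the list, gained peaks stood at 3.12 per 100 kb, against 0.747 for all genes.

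Lysosomal, granule and oxidase genes, which carry out killing and digestion in phagocytes, had a net gain at 21 of 23 and a median of 2. The protease gene Ctsd had 2 peaks in EV and 7 in PuER, and Cybb, the catalytic subunit of the phagocyte oxidase, 0 and 5. Mpeg1, which encodes a pore-forming protein, had 2 and 6. The 2 genes of the list with a net loss were Ctsg, at 1 and 0, and Grn, at 3 and 2. Some other granule genes of the list did not share this direction, as Mpo had 0 and 3. Elane and Prtn3 each had 2 and 3, but their windows overlap, so they can hold the same peaks. The density of gained peaks, 3.81 per 100 kb, was the highest among the lists.

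Leukocyte integrins and chemoattractant receptors gained at 17 of 20 genes, with a median of 2.50. Itgb2, the shared beta chain of leukocyte integrins, had 2 and 7 peaks and its partner Itgam, which encodes CD11b, 0 and 4. The fractalkine receptor Cx3cr1 had 3 and 7. The partner chain Itgal went the other way, with 3 and 1 peaks, 3 of them lost and 1 gained, as did Selp (3 and 2).

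Pathogen and Fc receptors gained at 19 of 27 genes and lost at 4, with a median of 1, beside net losses at 6.20% of all genes. Ly86, a partner of toll-like receptor homologues, had 2 and 7 peaks, and Cd14, the lipopolysaccharide co-receptor, 1 and 5. Clec5a had 1 and 5, and Fcgr2b 4 and 7. Losses were of 1 peak each. Ly96, the lipopolysaccharide-binding partner of Tlr4, had 1 and 0, and Clec4d had 4 and 3, whereas Tlr4 had 3 and 5.

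Receptors for myeloid growth factors and cytokines gained at 13 of 19 genes, with none losing. Tnfrsf1a had 0 and 4 peaks, Ifngr1 0 and 3, and Il4ra 1 and 4, while Csf2ra, the GM-CSF receptor alpha chain, had 2 and 4. Csf1r, the M-CSF receptor, had 0 and 1. The stem cell factor receptor Kit had no peak in either line, and the exchanging receptor Tnfrsf1b had 3 and 3, with 2 lost and 2 gained.

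Transcription factors of stem and progenitor cells gained at 13 of 18 genes, with none losing. Etv6 was followed by Ikzf1 (1 and 9 peaks), Runx1 (3 and 8) and Gfi1b (0 and 3). No peak was listed for Meis1 or Hoxa9. Transcription factors of monocytes and macrophages gained at 13 of 22, with none losing. Mitf had 0 and 7 peaks, Batf3 1 and 5, and the interferon regulatory factors Irf5 and Irf8 0 and 4, and 0 and 3. No peak was listed for the macrophage factors Maf and Egr2.

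Lists of other tissues served as a comparison. Of 17 liver genes, 2 gained and 14 had no peak, and 6 of 17 erythroid genes gained, in each case by 1 peak except Tfrc, the transferrin receptor, with 1 and 4. The share gaining was 11.8% for liver and 35.3% for erythroid genes, beside 32.5% of all genes, and the median net change of both lists was 0. T-cell genes were above all genes, with 11 of 20 (55%) gaining and 1 losing, a median net change of 1 and 1.05 gained peaks per 100 kb. Trat1 came first at 0 and 4. Long neuronal genes, with a median window of 1386 kb, gained at 10 of 20 (50%), led by Nrg1 at 0 and 7. Their gained peaks stood at only 0.080 per 100 kb. By density, then, these long genes were below all genes, although by count they were above.

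**Figure D5:**
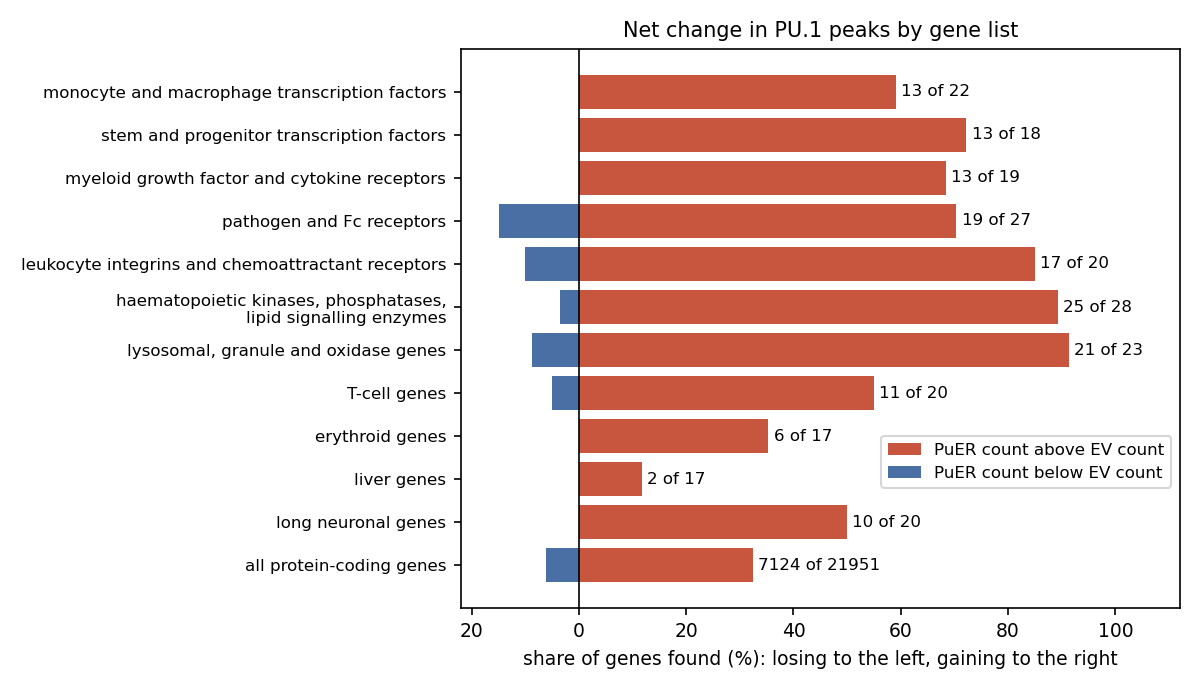
Share of genes (horizontal axis, %) with more PU.1 peaks in PuER than EV (red, to the right) and fewer (blue, to the left), for 11 lists of genes and all 21951 protein-coding genes, with the number gaining of the number found beside each bar. The 7 myeloid or haematopoietic lists lie between 59.1% and 91.3%, T-cell genes at 55%, long neuronal genes at 50%, erythroid genes at 35.3% and liver genes at 11.8%, beside 32.5% of all genes.

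CEBPA peaks at genes with a net PU.1 gain were more often fewer than more in PuER. At the 6813 genes with a net gain of 1 to 4, they were fewer at 36.1% and more at 12.7%. At the 311 genes with a net gain of 5 or more PU.1 peaks, CEBPA peaks were fewer in PuER at 172 (55.3%) and more at 86 (27.7%). Over all genes these shares were 26.7% and 6.72%, and at genes with a net PU.1 loss 45.9% and 5.36%. A fall in CEBPA peaks was therefore common at genes of either kind, and a rise was most frequent where PU.1 peaks had increased most. Genes of this class also have long windows, with a median of 203 kb and a mean of 8.14 CEBPA peaks in EV, and the part of window size in these shares was not tested.

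Among the 20 genes with the highest net change, CEBPA peaks rose at 7 and fell at 11. Tg went from 3 to 10, Irf2 from 5 to 8, Adgrl3 from 10 to 13 and Fars2 from 3 to 6. Foxp1 went from 29 to 25 and Astn2 from 23 to 15. Of the 281 gained PU.1 peaks of these genes, 91 coincided with a CEBPA peak of either line. The share over all gained peaks is not given here, so this count is a description only.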

How the data were processed

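PU.1 ChIP-Seq peaks of the EV and PuER lines were analysed, with CEBPA peaks of the same lines beside them. The authors aligned reads with Bowtie2 2.0.6 and called peaks with MACS2 2.0.10 (versions per the labels), and deposited them as mm10 intervals of 400 bp. The deposited files give coordinates and no score, count or signal, and the calling threshold is not given in the sources used here. Positions were compared with protein-coding genes of GENCODE M21 in Python 3.11.15 with numpy 2.4.6, pandas 2.3.3, scipy 1.17.1 and pysam 0.24.0. Overlaps were checked on simulated peaks, and assignment to genes on the PU.1 peaks of both lines, each against bedtools 2.31.1. Central 80-bp stretches were searched for sites. Genes named were the 20 with the highest and 10 with the lowest net change, the 8 with the highest net change per length, the 5 with most exchange, Spi1, and up to 4 highest and 2 lowest genes of each list, with ties to the smaller window. A gene that shared most of its peaks with one already taken was named as its neighbour. Genes at the largest groups of peaks were named too. Some genes that this rule selects are not reported here. Tlr4, Mpo, Elane, Prtn3 and the genes whose starts lay at lost peaks of Dnmt1 and Trim28 were named after their values were seen. Members and lists were chosen with earlier results of these data known. With 1 library for each line no test between lines was made. Alternatives were other overlaps, distances, gene sets and search widths, and RefSeq gene boundaries, the latter chosen after the data were seen.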

Additional observations from a re-analysis of the deposited data

How the results depend on the processing

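No paired analysis was possible because each line had 1 library, and leaving out a replicate was not possible for the same reason. Net change does not depend on the overlap that defines a shared peak. Restricting assignment to gene bodies gave 3727 genes with a net gain, 677 with a net loss, 177 with a net gain of 5 or more, 3982 with a gained and 1204 with a lost peak, 1747 with 2 or more peaks in PuER and 479 in EV. It left 7 gaining cytokine receptors, 12 pathogen and Fc receptors, 12 lysosomal, 7 T-cell and 1 liver gene, and CEBPA peaks fell at 62.7% of genes with a net gain of 5 or more. With 5 kb these were 196 genes with a net gain of 5 or more, 1962 with a lost peak, 2422 and 700 with 2 or more peaks, 1 liver gene and 62.2%. With 50 kb they were 693, 4766, 7799 and 2872, and 5 liver genes. Counting only the nearest gene gave 868 genes with a net loss, 1708 with a lost peak, and 2624 and 724 with 2 or more peaks. Peaks in groups of 3 or more made up 7.16%, 31.3% and 58.8% in PuER at 5, 20 and 50 kb, and 1.49%, 10.2% and 26.9% in EV. Within 200 bp and the whole peak, GGAAGT was found in 61.2% and 65.8% of gained peaks at the 20 genes, 63.3% and 70.0% of lost peaks at the 10 genes, and 57.2% and 63.5% of all gained peaks. Of 375 comparisons of single named genes, 358 kept their sign, 16 gave 0 and 1 turned, Marc2, with a net change of 1 in the gene body. Many of the 375 could not differ. Other overlaps, leaving out predicted genes and keeping chromosomes 1 to 19 cannot alter the net change of a gene that remains. In 44 the net change became 0 or moved by more than a set factor. Apart from Fgfr2, the genes that gave 0 were all among the 10 losing genes and the 8 ranked by density. In all of these alternatives the cause was not tested beyond what the narrower or wider search itself sets. Depth is unknown and limits which weak peaks either list could hold.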
